A study of Homo sapiens with 12 samples.

Results

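The mitochondrial ribosomal protein genes were taken as the protein-coding genes whose symbol begins with MRPL (48 genes) or MRPS (28 genes) and a number, 76 of the 21207 genes in the table. Another 10 symbols that begin the same way, such as MRPL42P1 and MRPS30-DT, are not protein coding in GENCODE 29 and were left out, and MRPL53 and MRPS5 were not analysed here. The 76 genes were read in HEYA8, an established ovarian cancer cell line, kept for 48 h with vehicle (0 µM) or with colforsin daropate at 1, 5 or 10 µM. Colforsin daropate is a water-soluble forskolin derivative, and forskolin activates adenylyl cyclase. Each of the 4 groups had 3 libraries of ribosome-depleted total RNA, which the design text calls biological replicates, and the titles give each library a number (6, 8 or 11) whose meaning the labels do not state. The title of the series names MYC-driven high-grade serous ovarian carcinoma as its subject.

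The mitochondrial ribosome translates the few messenger RNAs encoded by mitochondrial DNA, all of them for subunits of the respiratory chain and ATP synthase. Its RNAs are mitochondrially encoded, whereas its proteins are made from nuclear genes in the cytosol and imported. The large subunit joins amino acids and holds the exit tunnel, and the small subunit reads the messenger RNA. Many of the proteins have a bacterial counterpart and the others were added in the mitochondrial lineage. Nuclear genes of this kind are known for short promoters with sites for ETS-family factors and for nuclear respiratory factor 1 (NRF1), and MYC is a known activator of ribosome and mitochondrial genes.

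Upstream sequence was looked at first because members that fell and the member that rose can be set side by side. RefSeq (GRCh38.p14) gave a window of the 250 bases before a transcription start for 67 of the 76 genes. The first start listed for a member was used, whereas the windows of all genes were not reduced to 1 per gene. The ETS core CCGGAAG was present on either strand in 22 of the 67 windows (32.8%) and in 8.50% of all 34788 RefSeq windows of that length. An NRF1 site, GCGCA and GCGC parted by any 1 base, was in 8 (11.9%, all windows 5.05%), an E-box of the kind MYC binds, CACGTG, in 6 (8.96%, all windows 6.31%), and a YY1 site, AAGATGGCG, in 3 (4.48%, all windows 0.655%). The full cyclic AMP response element TGACGTCA was in 0 of the 67 (all windows 1.64%), its shorter core TGACG, which lies within it, in 17 (25.4%, all windows 21.2%), and the CCAAT box in 19 (28.4%, all windows 32.0%).

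The 4 windows below are those of 3 genes that fell (MRPS6, MRPL11, MRPS31) and of MRPS22, the gene called higher at 5 µM. They are printed 5′ to 3′ on the gene's strand, without the bases that lie in an exon of GENCODE 29. Other starts of these genes were not looked at. The MRPL11 window lies inside the gene's span in GENCODE 29 (chr11:66435075-66466738), and the MRPS6 window inside the MRPS6 locus given below. Capitals mark the ETS core, and the E-box, NRF1, full cyclic AMP, YY1 and CCAAT motifs had no match in them.
MRPS6, chr21:34073328-34073522, plus strand: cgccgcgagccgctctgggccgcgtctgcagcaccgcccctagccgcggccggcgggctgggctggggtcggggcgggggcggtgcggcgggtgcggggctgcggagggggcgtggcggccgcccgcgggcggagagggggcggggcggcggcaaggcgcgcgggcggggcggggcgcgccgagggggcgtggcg
MRPL11, chr11:66438849-66439098, minus strand: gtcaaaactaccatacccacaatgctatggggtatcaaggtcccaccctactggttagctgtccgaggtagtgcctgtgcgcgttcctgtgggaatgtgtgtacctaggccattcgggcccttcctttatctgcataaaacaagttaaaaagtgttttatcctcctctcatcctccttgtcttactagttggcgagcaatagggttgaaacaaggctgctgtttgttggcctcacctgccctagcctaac
MRPS31, chr13:40771191-40771440, minus strand: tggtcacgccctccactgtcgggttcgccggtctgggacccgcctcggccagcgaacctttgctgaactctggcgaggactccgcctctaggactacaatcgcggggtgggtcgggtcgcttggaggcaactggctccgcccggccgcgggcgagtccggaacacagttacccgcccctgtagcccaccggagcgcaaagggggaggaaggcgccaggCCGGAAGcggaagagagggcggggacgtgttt
MRPS22, chr3:139343744-139343955, plus strand: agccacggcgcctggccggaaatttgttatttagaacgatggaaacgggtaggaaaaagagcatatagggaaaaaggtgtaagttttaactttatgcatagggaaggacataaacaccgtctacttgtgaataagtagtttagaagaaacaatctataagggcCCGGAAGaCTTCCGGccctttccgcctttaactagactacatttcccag
The MRPS22 window held 2 facing copies of the ETS core, the first starting 87 and the second 79 bases before the start site, and the MRPS31 window 1 copy, 32 bases before. G and C made up 88.2% of the printed MRPS6 bases, 49.2% of those of MRPL11, 68.8% of those of MRPS31 and 42.9% of those of MRPS22. Of the 9 genes called lower at 10 µM, 8 had a window, and the ETS core was in 2 of those (MRPL48 and MRPS31). The NRF1 site and the E-box were each in 1 of the 8, that of MRPL45. The CCAAT box and the core TGACG were each in 1, that of MRPS30, and the full cyclic AMP and YY1 motifs in 0. A match is a description of letters and was not tested for binding.

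Values are the deposited variance-stabilised ones, on a log2 scale for abundant genes, with a floor of 4.86. They were rounded to 3 significant digits, so from 10 up they move in steps of 0.1. A gene was called when its adjusted p (limma, all 17767 genes tested, two-sided) was under 0.05, and percent changes are on normalised counts recovered from the values. Calls come from the unweighted fit of all 12 libraries with the dose groups alone, unless an alternative such as the block (the label number added to the fit) is named. All 76 members passed the filter on low values. Each library held 24.0 to 48.6 megareads on genes, with vehicle library 6 the shallowest. That library also stood apart in its mitosis markers, whose median was 11.45, against 9.43 and 9.18 in vehicle libraries 8 and 11. From vehicle to 10 µM that median moved by -2.00 in number 6 and by 0.28 and 0.38 in numbers 8 and 11, so counts are given with and without number 6. Number 6 was again the highest in mitosis markers at 1 µM (11.4, against 10.2 and 9.82) and 5 µM (10.85, against 10.05 and 9.56). Vehicle library 6 was thus not alone in this. Endothelial markers were apart in number 6 too. The 5 of them (PECAM1, CDH5, VWF, KDR and TEK) summed to 8052 normalised counts in vehicle library 6, against 2089 and 1958 in vehicle libraries 8 and 11. In numbers 6, 8 and 11 they summed to 9128, 4210 and 3953 at 1 µM. At 5 µM the sums were 5966, 4827 and 4199, and at 10 µM 4250, 4491 and 3950. CDH5, a cadherin of endothelial cells, made up most of that and read 10.8 to 13.1 over the 12 libraries, and none of the 5 was at the floor. The listed carcinoma and ovarian lineage markers, 9 in the table with VIM among them, summed to 494207 in vehicle library 6, against 271243 and 284988. At 10 µM they summed to 173322 to 228167. At 1 µM number 6 was the highest as well (384836, against 245743 and 254466). A sum weighs abundant genes most, and VIM read 17 to 18.7. The list median moved the other way, from 12.5, 11.7 and 11.5 in vehicle to 13.1, 13 and 12.8 at 10 µM (numbers 6, 8 and 11). Of 7 tested, 3 were called lower and 2 higher at 10 µM (11.4% and 11.2% of all genes). The part of these marker shifts in the member values was not tested. The line's markers PAX8 (12.5 to 13.6), KRT8 (13.1 to 14.5), KRT18 (13.6 to 14.9) and VIM (17 to 18.7) were high in all 12 libraries, whereas EPCAM (5.45 to 5.72) and KRT19 (4.86 to 5.94) were near the floor. The immune markers PTPRC, CD68 and CD14 summed to 6.32 to 24.5 normalised counts per library.

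The members were mostly abundant. Their mean level over 12 libraries ran from 5.94 to 12.93 with a median of 10.57, above the median of 9.03 for all genes tested, and 47 of the 76 were at 10 or more in every library. MRPS22 (12.93), a mitochondria-specific small subunit protein, had the highest level, followed by MRPL3 (12.68), MRPL51 (12.53), MRPS25 (12.25) and MRPS27 (12.21). The lowest were MRPS24 (5.94), MRPL12 (6.71), MRPL38 (6.94), MRPL23 (7.23) and MRPL2 (7.26).

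Levels between genes were compared per kilobase of annotated exon, as normalised counts averaged over the 12 libraries. MRPL51 led with 3778 per kb, ahead of MRPL15 with 3206 and MRPL3 with 2412, and MRPS24 (6.67), MRPL46 (18.1) and MRPL38 (19.8) were at the other end. The median was 583 per kb over MRPL genes and 632 over MRPS genes. Some of the lowest members share exons with other genes: 68.2% of the MRPL12 exon bases, 41.1% of those of MRPL38 and 23.2% of those of MRPS24 overlap another annotated gene. Such overlap was not confined to the low end, since only 37 of the 76 members had none. It covered 31.3% of the exon bases of MRPL51, the highest per kb, and 2.86% and 11.3% of those of the low members MRPL23 and MRPL46. The strand setting of the counting was not given in the sources used here, and the part of shared reads in these low levels was not tested.

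At 10 µM, 9 of the 76 genes were called lower and 0 higher (11.4% of all tested genes were called lower and 11.2% higher). The 9 were MRPS6, MRPL48, MRPL11, MRPL10, MRPL1, MRPS31, MRPS30, MRPS35 and MRPL45. Their number was close to what the share of all genes would give. Differences ran from -0.93 (MRPS6) to 0.23 (MRPL33) with a median of -0.11, where the median of all genes tested was 0. Of the 76, 55 had a difference below 0 and 17 above. The changes were small: 59 members (77.6%) lay within 0.2 of vehicle, against 51.8% of all genes tested, and the median absolute difference was 0.13 for members and 0.20 for all genes. At an unadjusted p under 0.05, 17 were lower and 2 higher (17.5% and 17.3% of all genes).

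With the label number as a block, 18 genes were called lower and 3 higher at 10 µM (19.7% and 18.7% of all genes). All 9 named above remained among the 18. Array weights, which let limma weight libraries by their scatter, gave 21 lower and 3 higher (21.2% and 20.4% of all genes). Without vehicle library 6 the counts were 12 lower and 1 higher (12.4% and 11.9% of all genes), and without number 6 in every group 15 and 2 (17.2% and 16.2%). Without number 11 they were 3 and 0 (2.78% and 2.63% of all genes), and without number 8 0 and 0 (1.42% and 1.95%). The members' counts thus went up and down with those of all genes.

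**Figure D1:**
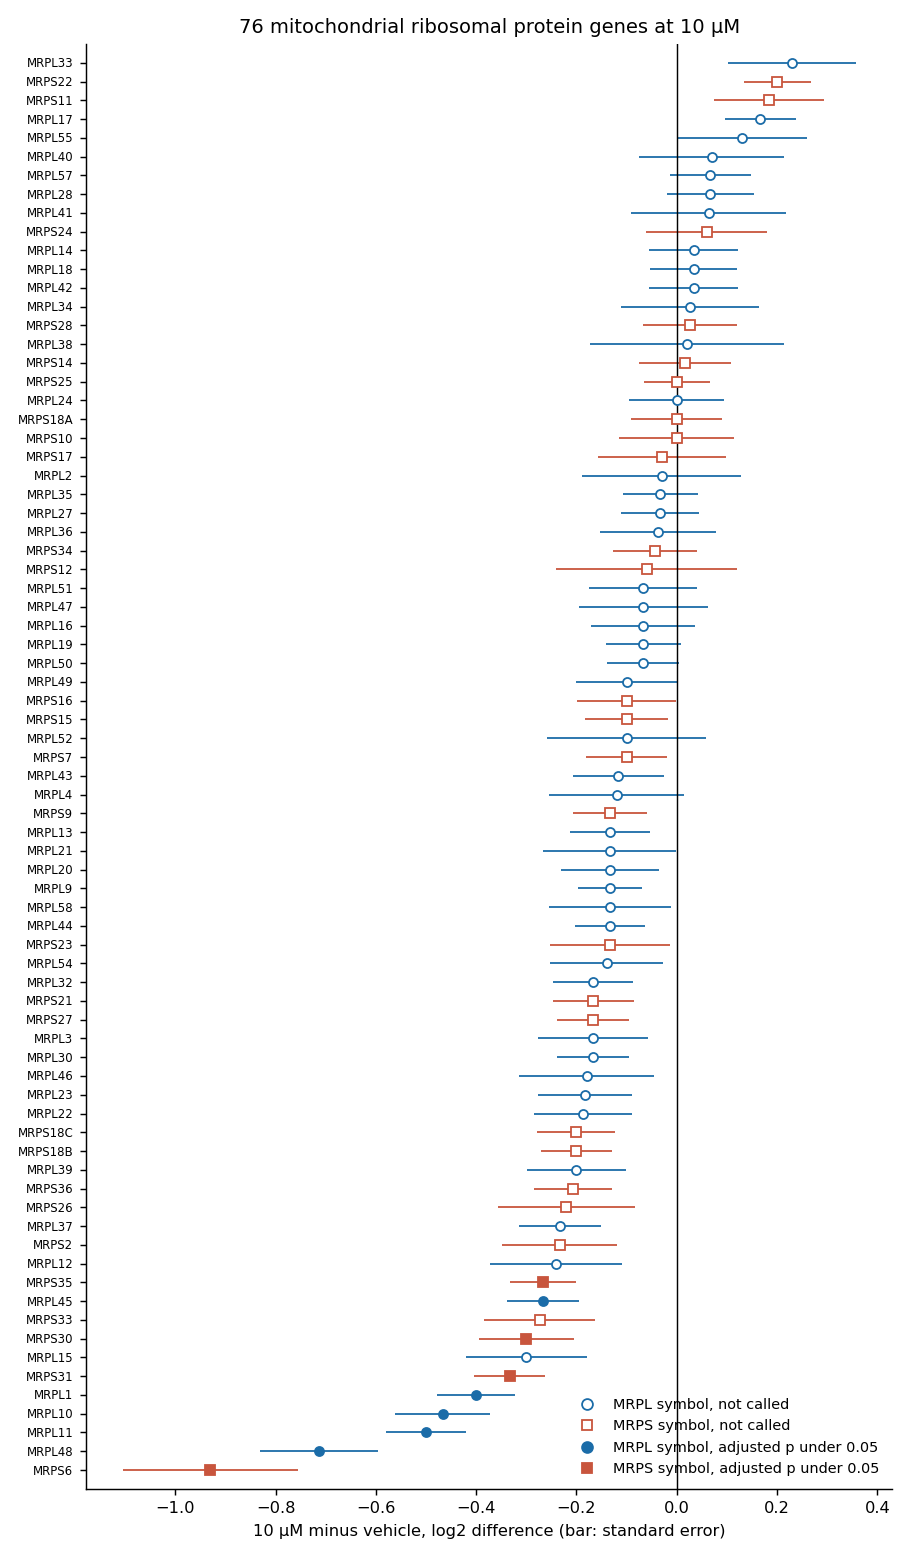
Difference between 10 µM and vehicle for each of the 76 genes (x axis, log2 scale; bars are the standard error of the limma fit), ordered by size, with MRPL genes as circles, MRPS genes as squares and called genes filled. The 9 called genes sit at the low end, from -0.93 for MRPS6 to -0.27 for MRPS35 and MRPL45, and no gene on the higher side was called.

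At 5 µM, 5 genes were called lower and 1 higher (7.44% and 7.67% of all genes). The 5 were MRPS6, MRPL48, MRPL10, MRPS31 and MRPL11, all of them also among the 9 at 10 µM, and the 1 was MRPS22. The block gave 8 lower, with MRPL1, MRPL32 and MRPS35 added, and 2 higher, with MRPL17 added (15.3% of all genes in each direction). Array weights gave 20 lower and 4 higher (21.5% and 21.6% of all genes). The count of lower genes was 1 without vehicle library 8, vehicle library 11 or 5 µM library 6 (4.56%, 4.28% and 4.62% of all genes), and 3 without 5 µM library 8 (4.77%). The higher count was 0 without 5 µM library 8 (5.51% of all genes) and 2 without vehicle library 6 (8.51%).

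At 1 µM no member was called in either direction (0.613% of all genes were called lower and 1.18% higher). At an unadjusted p under 0.05, 4 were lower and 3 higher in limma (7.34% and 8.13% of all genes), and voom on recovered counts also called 0. With the block 1 was called lower (MRPS31, -0.23, adjusted p = 0.0463 in the limma fit) and 1 higher (MRPL17, 0.23, adjusted p = 0.0242), beside 5.26% and 6.76% of all genes. Array weights gave 12 lower and 7 higher at 1 µM (13.8% and 15.1% of all genes). The step from 1 to 5 µM called 0 members in the same limma fit (0.31% of all genes), with 5 lower and 0 higher at an unadjusted p under 0.05 (10.1% of all genes in either direction). The step from 5 to 10 µM also called 0 (0% of all genes), with 2 lower and 0 higher unadjusted (3.38% of all genes), and voom called 0 in both steps. Over the 76 members the median difference was 0.00, -0.03 and -0.11 at 1, 5 and 10 µM. These 3 comparisons share the vehicle libraries.

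The large subunit genes whose RNA fell include those of both the uL10 and uL11 family members of the stalk base, the site that recruits translation factors. MRPL11 read 10.8, 10.7 and 10.8 in vehicle (numbers 6, 8 and 11 in order here and below), 10.7, 10.8 and 10.7 at 1 µM, 10.5 in all 3 libraries at 5 µM and 10.1, 10.3 and 10.4 at 10 µM. Every 5 and 10 µM library lay below every vehicle library, and 1 µM overlapped it. The difference was -0.27 ± 0.08 (SE) at 5 µM (limma, adjusted p = 0.0454) and reached -0.50 ± 0.08 at 10 µM (adjusted p = 0.00128), and normalised counts fell by 30.0% at 10 µM. The 5 µM call was lost when any of 10 of the 12 libraries was left out, with adjusted p up to 0.133, and the 10 µM call was kept in all 12 such fits.

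MRPL10, which anchors the stalk proteins, read 11.9, 12.1 and 12.1 in vehicle, 11.8, 11.9 and 11.9 at 1 µM, 11.5, 11.6 and 11.8 at 5 µM and 11.5, 11.5 and 11.7 at 10 µM. The 5 and 10 µM libraries were all below vehicle. It fell by 0.40 ± 0.09 at 5 µM (limma, adjusted p = 0.0153) and by 0.47 ± 0.09 at 10 µM (adjusted p = 0.00457), where counts fell by 28%. Its 5 µM call was lost without vehicle library 8 (adjusted p = 0.0635), vehicle library 11 (0.0614), 5 µM library 6 (0.0609) or 5 µM library 8 (0.0536). The other stalk genes read here are MRPL12, called at no dose (-0.24 at 10 µM, limma, adjusted p = 0.219), and MRPL54 (-0.14 at 10 µM). Thus 2 of the 4 stalk genes read here, which may not be all of the stalk, were called lower at 10 µM, beside 11.4% of all genes. The sites of the ribosome were not tested as groups.

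MRPL1, a protein of the mobile L1 arm by which spent transfer RNA leaves, was lower at each dose than at the one before in every number. It read 10.1, 10.0 and 9.94 in vehicle, 10.0, 9.95 and 9.87 at 1 µM, 9.87, 9.84 and 9.71 at 5 µM and 9.56, 9.61 and 9.67 at 10 µM. All 5 and 10 µM libraries were below vehicle, while 1 µM overlapped it. The difference was -0.40 ± 0.08 at 10 µM (limma, adjusted p = 0.00361), where counts fell by 25.7%, and -0.21 ± 0.08 at 5 µM (adjusted p = 0.0975, with the block 0.0427).

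MRPL48, a mitochondria-specific protein of the central protuberance, changed most among the MRPL genes. Vehicle libraries read 9.93, 10.2 and 10.1, 1 µM libraries 9.84, 9.96 and 9.77, 5 µM libraries 9.39, 9.69 and 9.70 and 10 µM libraries 9.17, 9.49 and 9.43. The 5 and 10 µM groups did not overlap vehicle, and number 6 was the lowest library of its group in vehicle, at 5 and at 10 µM. MRPL48 fell by 0.48 ± 0.12 at 5 µM (limma, adjusted p = 0.0174) and by 0.71 ± 0.12 at 10 µM (adjusted p = 0.00142), where counts fell by 41.0%. The 5 µM call was lost without vehicle library 8 (adjusted p = 0.0751), vehicle library 11 (0.0585) or 5 µM library 6 (0.0668). It was the 1 gene called among 7 of the central protuberance (at 10 µM 11.4% of all genes were called lower).

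MRPL45 sits at the exit of the peptide tunnel, where the ribosome meets the inner membrane. Vehicle read 11, 11.1 and 11, and 10 µM 10.7, 10.7 and 10.9, a difference of -0.27 ± 0.07 (limma, adjusted p = 0.0209). The 2 groups did not overlap, though the gap between their nearest libraries was 1 rounding step. The call was lost without vehicle library 8 (adjusted p = 0.0858), 10 µM library 6 (0.0702) or 10 µM library 8 (0.0736). MRPL45 was the 1 gene called among 5 of the exit tunnel (at 10 µM 11.4% of all genes were called lower).

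MRPS30 carries a small subunit name but is a large subunit protein by structure. It read 11.6, 11.4 and 11.5 in vehicle, 11.1, 11.4 and 11.4 at 1 µM, 11.2, 11.3 and 11.3 at 5 µM and 11.3, 11.1 and 11.2 at 10 µM. The 10 µM libraries were all below vehicle, by -0.30 ± 0.09 (limma, adjusted p = 0.0404). That call was kept in 6 of the 12 fits that left out 1 library, the fewest among the 9. It was lost without vehicle library 6 (adjusted p = 0.0994), vehicle library 11 (0.0949), 5 µM library 8 (0.0571), 5 µM library 11 (0.0537), 10 µM library 8 (0.132) or 10 µM library 11 (0.0877), and when library medians were made equal (0.0598).

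In the small subunit, MRPS6 had the largest difference of all 76 genes. MRPS6 belongs to the bS6 family, whose bacterial member pairs with S18 at the platform. It read 10.3, 9.63 and 9.70 in vehicle, 9.76, 9.25 and 9.32 at 1 µM, 8.92, 9.07 and 9.11 at 5 µM and 8.92, 8.87 and 9.05 at 10 µM. Vehicle library 6 was the highest of the 12, and all 5 and 10 µM libraries lay below all vehicle libraries. MRPS6 differed by -0.84 ± 0.17 at 5 µM (limma, adjusted p = 0.00802) and by -0.93 ± 0.17 at 10 µM (adjusted p = 0.0031). Normalised counts were 904 ± 260 (SD, n = 3) in vehicle and 438 ± 32.1 at 10 µM, and so fell by 51.6%. Both calls were kept when any single library was left out.

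The MRPS6 locus (chr21:34073224-34143034, plus strand, GENCODE 29) shares exons with SLC5A3, the sodium-coupled myo-inositol transporter, whose coding sequence is intronless and whose transcripts start in the same first exon. SLC5A3 exons cover 6.35% of the MRPS6 exon bases, and all overlapping genes together 9.61%, on the same strand. SLC5A3 read 12.2, 11 and 11 in vehicle and 10.6, 10.3 and 10.2 at 10 µM, a difference of -1.03 ± 0.28 (limma, adjusted p = 0.0196). Vehicle library 6 was the highest of 12 in both genes. Whether reads of SLC5A3 entered the MRPS6 values was not tested.

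MRPS22 was called higher at 5 µM. It read 12.7, 12.8 and 12.8 in vehicle, 13, 12.9 and 12.9 at 1 µM, 13, 13.1 and 13 at 5 µM and 13, 12.9 and 13 at 10 µM. Every treated library was above every vehicle library. The difference was 0.27 ± 0.07 at 5 µM (limma, adjusted p = 0.0202; 20.5% more counts) and 0.20 ± 0.07 at 10 µM (adjusted p = 0.0507, with the block 0.0227). Without 5 µM library 8 the 5 µM difference was 0.23 with adjusted p = 0.0781.

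COPB2, a coat protein of Golgi vesicles on the opposite strand, shares 86 of the 5382 MRPS22 exon bases. Most of the 7.80% that overlap other genes lie in PRR23A (5.39%), on the opposite strand as well. COPB2 read 14, 14 and 14.1 in vehicle and 14.5, 14.5 and 14.4 at 5 µM, a difference of 0.43 ± 0.08 (limma, adjusted p = 0.00363). Both genes were thus higher at 5 µM, with COPB2 the more abundant. Without a known strand setting, reads of the 2 genes cannot be told apart over the shared bases. SLC5A3 and COPB2 were chosen after their values were seen, because of the overlap. PELI3, the opposite-strand neighbour that overlaps 4.69% of the MRPL11 exon bases, was chosen in the same way and was not called at 10 µM (-0.28, adjusted p = 0.154). None of MRPL48, MRPL10, MRPL1, MRPS31, MRPS30, MRPS35 and MRPL45 overlaps another gene's exons in that annotation.

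**Figure D2:**
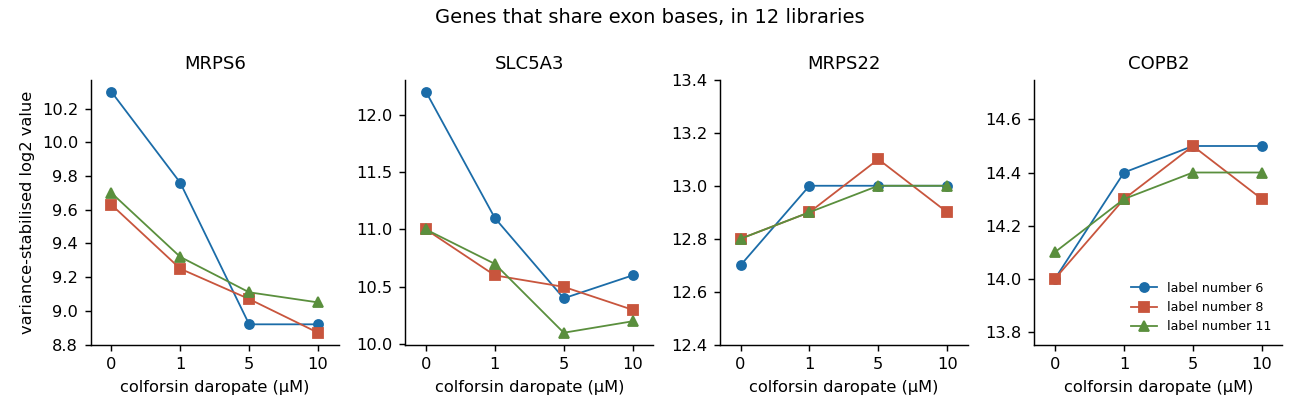
Variance-stabilised values (y axis, log2 scale) of MRPS6 and its neighbour SLC5A3, and of MRPS22 and its neighbour COPB2, by dose (x axis, equally spaced categories), with 1 line per label number. MRPS6 and SLC5A3 were both highest in vehicle library 6 (10.3 and 12.2), and MRPS22 and COPB2 were both above vehicle at every dose.

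MRPS31 and MRPS35 are mitochondria-specific proteins of the small subunit. MRPS31 read 10.6 in all 3 vehicle libraries, 10.4, 10.3 and 10.4 at 1 µM, 10.2, 10.4 and 10.3 at 5 µM and 10.3, 10.2 and 10.3 at 10 µM. Every treated library was below vehicle at all 3 doses. MRPS31 differed by -0.30 ± 0.07 at 5 µM (limma, adjusted p = 0.0157) and by -0.33 ± 0.07 at 10 µM (adjusted p = 0.00617), and the vehicle SD of 0 reflects rounding. Its 5 µM call was lost without vehicle library 8 (adjusted p = 0.0527), vehicle library 11 (0.0526) or 5 µM library 6 (0.0616).

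MRPS35 read 12.1, 12 and 12 in vehicle and 11.8, 11.7 and 11.8 at 10 µM, with no overlap. It fell by 0.27 ± 0.07 (limma, adjusted p = 0.013), and the call was lost without 10 µM library 8 (adjusted p = 0.05005, just above the threshold). At 5 µM its difference of -0.20 had an adjusted p of 0.0615, and of 0.0189 with the block.

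**Figure D3:**
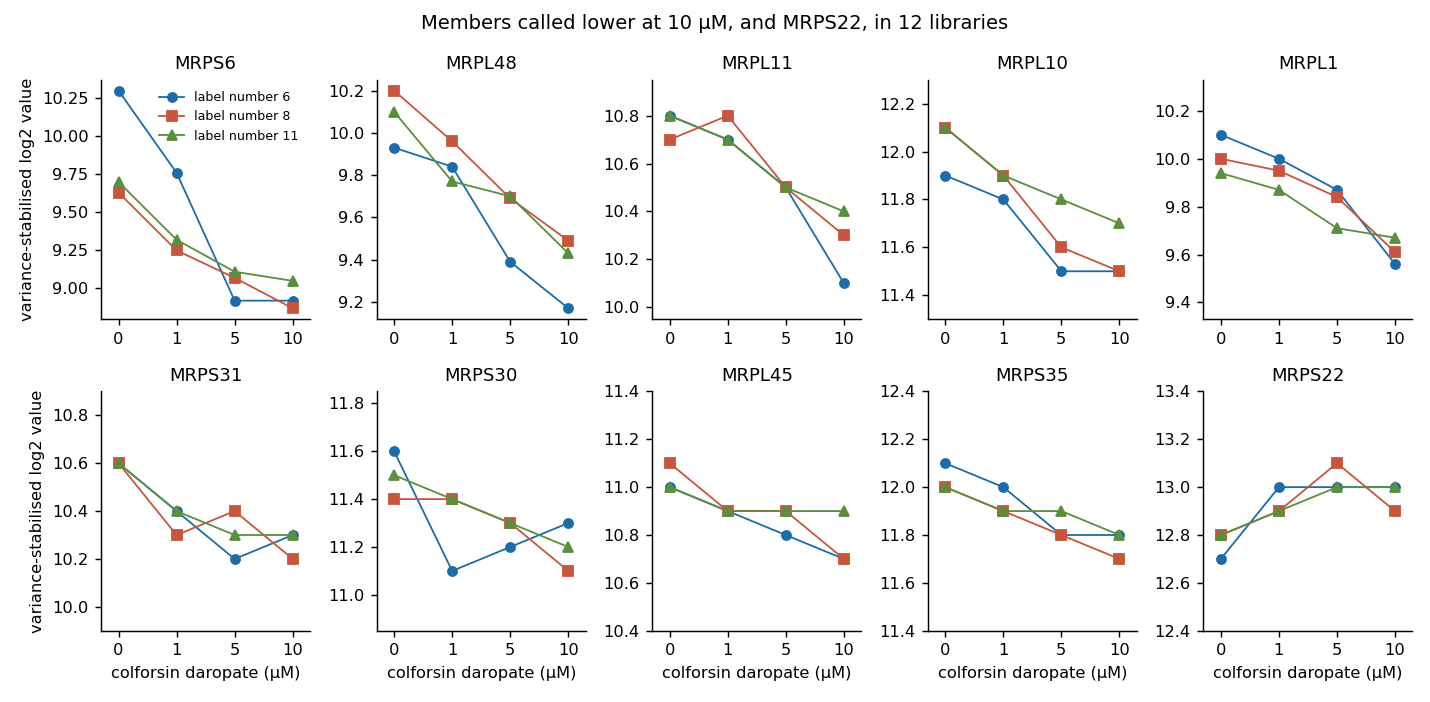
Variance-stabilised values (y axis, log2 scale, each panel with its own range of at least 1 unit) of the 9 genes called lower at 10 µM and of MRPS22 in all 12 libraries, by dose in µM (x axis, equally spaced categories), with 1 line per label number. In the 9 panels the 3 libraries at 10 µM lie below the 3 vehicle libraries, and in the MRPS22 panel all treated libraries lie above vehicle.

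Other members whose libraries did not overlap at 10 µM add to these. In all, 16 genes were lower and 3 higher without overlap (16.8% and 17% of all genes). The 3 higher were MRPS22, MRPS11 and MRPL17. MRPL17, a protein of the tunnel exit, read 11.3, 11.4 and 11.4 in vehicle, 11.6 in all 3 libraries at 1 µM, 11.5, 11.5 and 11.7 at 5 µM and 11.5, 11.5 and 11.6 at 10 µM. It lay above vehicle at all doses, with differences of 0.23, 0.20 and 0.17 ± 0.07 that were called with the block (limma, adjusted p = 0.0242, 0.0227 and 0.042) and not without it. Array weights also called MRPL17 at 5 µM (0.14, adjusted p = 0.0321).

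Of the genes that the block added to the calls at 10 µM, the 5 with the largest differences were MRPL15 (-0.30, adjusted p = 0.0394), MRPS33 (-0.27, 0.0436), MRPS2 (-0.23, 0.0351), MRPL37 (-0.23, 0.0321) and MRPL33 (0.23, 0.0434). Without the block their adjusted p values were 0.101, 0.103, 0.172, 0.0618 and 0.223. Array weights, with no block, also called MRPS33 (adjusted p = 0.00119), MRPL37 (0.0262) and MRPL33 (0.00548). MRPL33 read 10.2, 9.82 and 9.69 in vehicle and 10.2, 10.1 and 10.1 at 10 µM. Number 6 read the same at both, and the 2 other numbers were higher at 10 µM. Without vehicle library 6 the MRPL33 difference was 0.38 at 10 µM (limma, adjusted p = 0.0233) and 0.38 at 5 µM (0.0301). Without number 6 in every group MRPS33 was called as well (-0.41, adjusted p = 0.00665).

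The 3 paralogs of bacterial S18 differ in position, and their changes were not tested against each other. MRPS18A, a large subunit protein by structure, was at 10.23 ± 0.12 (SD, n = 3) in vehicle and 10.23 ± 0.15 at 10 µM. MRPS18B went from 11.77 to 11.57 (-0.20 ± 0.07, limma adjusted p = 0.0653, with the block 0.0297) and MRPS18C from 10.87 to 10.67 (-0.20 ± 0.08, adjusted p = 0.089, with the block 0.025). The latter 2 did not overlap vehicle at 10 µM, and none of the 3 was called in the limma fit without the block. Of the 3, voom on recovered counts, also with no block, called MRPS18C (-0.23, adjusted p = 0.0452). Exons of MRPS18A (47.0% of bases) and MRPS18C (40.2%) overlap genes on the opposite strand. MRPS36, a member by symbol that is known as a subunit of the 2-oxoglutarate dehydrogenase complex, had a difference of -0.21 (limma, adjusted p = 0.0774, with the block 0.027). Array weights (adjusted p = 0.0377) and voom (0.0375) called MRPS36 too.

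Among the abundant members, MRPS25 had a difference of 0.00 at 10 µM, MRPL51 of -0.07 and MRPL3 of -0.17, none of them called in that fit. MRPL3 was called with the block (limma, adjusted p = 0.0258) and without number 6 in every group (0.0483). The low members MRPS24, MRPL38, MRPL23 and MRPL2 were not called at any dose. For the members the standard error at 10 µM was 0.06 to 0.19 with a median of 0.09, so many of the small differences were of the size of their error.

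The subunits were then set against each other. Of 48 MRPL genes 5 were called lower at 10 µM, and of 28 MRPS genes 4 (11.4% of all tested genes). By structure, with MRPS18A and MRPS30 in the large subunit and MRPS36 left out, the counts were 6 of 50 and 3 of 25. The median level in a library was 10.4 to 10.7 for MRPL genes and 10.5 to 10.75 for MRPS genes. Large minus small, the medians differed by -0.10, -0.05 and -0.05 in vehicle libraries 6, 8 and 11 and by -0.10, -0.10 and 0.00 at 10 µM. Against vehicle of the same number, that difference changed by 0.17 ± 0.03 (SD, n = 3) at 1 µM, 0.10 ± 0.05 at 5 µM and 0.00 ± 0.05 at 10 µM, beside rounding steps of 0.1.

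Means over the members are finer than the rounding. The mean MRPL gene differed from vehicle by 0.01 ± 0.04, -0.04 ± 0.04 and -0.11 ± 0.04 (SD over the 3 numbers) at 1, 5 and 10 µM. For the mean MRPS gene these values were -0.02 ± 0.01, -0.09 ± 0.02 and -0.13 ± 0.05. Large minus small was 0.04 ± 0.02, 0.04 ± 0.04 and 0.02 ± 0.01. Both subunits were thus on the lower side at 10 µM in all 3 numbers, most so in number 6 (-0.16 and -0.19) and least in number 11 (-0.07 and -0.09). Since these are summaries over chosen genes they carry no p-value.

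**Figure D4:**
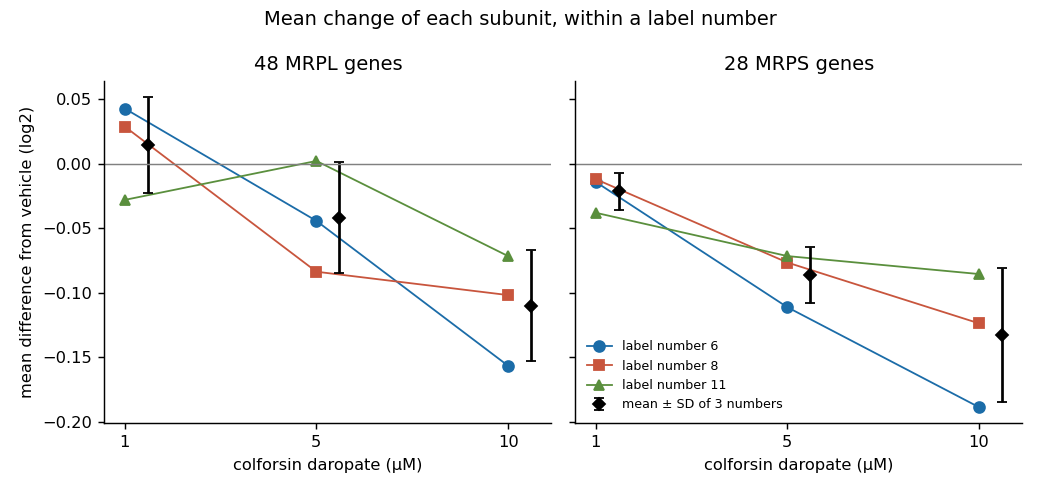
Mean difference from the vehicle library of the same label number (y axis, log2 scale) over 48 MRPL genes (left) and 28 MRPS genes (right) at 1, 5 and 10 µM (x axis, equally spaced categories); lines are label numbers, and black diamonds the mean and SD over 3 numbers. At 10 µM the means were -0.11 and -0.13, and all 6 points lay below 0.

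By evolutionary origin the counts were as follows. Of 45 genes for proteins shared with bacteria 4 were called lower at 10 µM (median of the 45, -0.10), and of 30 for mitochondria-specific ones 5 (median -0.13). These stand beside the same 11.4% of all genes. The block gave 9 and 8 lower, beside 19.7% of all genes. The differences between these groups were not tested.

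Single members were compared with the median profile of all members. The closest over 12 libraries was MRPS2 (Pearson r = 0.962), then MRPL48 (0.889) and MRPS36 (0.867). These r values describe libraries that fall into 4 dose groups and share scaling, and the median profile includes the genes themselves. MRPL33 (-0.656) was the most opposed.

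Genes outside the symbol rule that serve the same ribosome were read in the same fit. The shares of all genes to set these lists against at 10 µM are 11.4% lower and 11.2% higher, and 19.7% and 18.7% with the block. Of 5 mitoribosomal protein genes with other symbols, 1 fell at 10 µM. This was DAP3 (mS29), a GTP-binding protein of the small subunit head, by 0.30 (limma, adjusted p = 0.0443). PTCD3 (mS39), which receives messenger RNA at the entry channel, was lower at 5 µM (-0.27, adjusted p = 0.0314) and not called at 10 µM (-0.20, adjusted p = 0.0746, with the block 0.0233). AURKAIP1 (-0.10), CHCHD1 (-0.14) and GADD45GIP1 (0.03) were not called.

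Assembly factors numbered 29 tested, of which 5 fell and 1 rose at 10 µM (with the block 8 and 3). TFB1M, which methylates the small subunit RNA, fell by 0.72 (limma, adjusted p = 0.00118). RPUSD4 (-0.47) and METTL17 (-0.42), both of which act on ribosomal RNA or the assembling subunit, and C1QBP (-0.37) fell as well. The gene that rose was MTG2, a GTPase of the large subunit (0.27, adjusted p = 0.0244). Of 15 translation factors, 2 fell (with the block 5), a count near the share of all genes: OXA1L, the membrane insertase that binds the ribosome (-0.43), and MRRF, the recycling factor (-0.33). Of 20 mitochondrial transfer RNA synthetases, 6 fell (with the block 8), with NARS2 (-0.59), MARS2 (-0.55), CARS2 (-0.43) and WARS2 (-0.32) the largest.

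Regulators of mitochondrial genes were read in the same fit, and 4 of 15 fell at 10 µM. MYC read 12.6, 12.9 and 13 in vehicle and 11.6, 12.3 and 12.2 at 10 µM, without overlap, a fall of 0.80 ± 0.17 (limma, adjusted p = 0.00691). The others were the coactivator PPARGC1B (-0.88, adjusted p = 0.00069), the RNA-binding protein LRPPRC (-0.43) and TFAM, which packages mitochondrial DNA (-0.40, adjusted p = 0.00465). NRF1 (-0.07, adjusted p = 0.667) and the ETS-family factor GABPA (-0.03, adjusted p = 0.797), whose motifs were searched above, were not called, and neither was PPARGC1A (-0.20, adjusted p = 0.592), which was near the floor.

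The mitochondrially encoded RNAs were not called without the block. Of 13 mitochondrially encoded messenger RNAs 0 were called at 10 µM, also 0 at an unadjusted p under 0.05 and 0 with the block. Their median difference of 0.00 there came from medians of -0.10, -0.16 and 0.28 in numbers 6, 8 and 11. Their median was -0.20 at 1 µM and 0.20 at 5 µM, with 0 called at either dose (at 5 µM 1 higher with the block, beside 15.3% of all genes). From 1 to 5 µM, 13 of the 13 were on the higher side, with 0 called (limma, 3 at an unadjusted p under 0.05) and 3 called with the block. With the block 2.51% of all genes were called higher in that step. The ribosomal RNAs MT-RNR1 (-0.67, limma adjusted p = 0.108, with the block 0.0367) and MT-RNR2 (-0.43, adjusted p = 0.15, with the block 0.0158) were read after ribosomal depletion, and its part in their levels was not tested.

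Cytosolic ribosomal protein genes stood beside these with 73 of 79 called lower and 0 higher at 10 µM, and a median of -0.70, where the members had 9 of 76 and -0.11. Those called lower were 62 of 79 at 5 µM (members 5 of 76) and 4 of 79 at 1 µM (with the block 49). Of all genes, 7.44% were called lower at 5 µM, 0.613% at 1 µM and 5.26% at 1 µM with the block. As a share of all gene counts, the cytosolic set went from 6.59% to 8.18% in vehicle libraries to 4.18% to 5.02% at 10 µM, and the members from 0.378% to 0.394% to 0.331% to 0.359%. In both sets every 10 µM library was below every vehicle library. The 10 most abundant genes took 6.51% to 8.39% of counts in vehicle and 9.75% to 11.5% at 10 µM, and the part of that shift in the shares was not tested. In bulk RNA, fewer cells with a transcript and less of it per cell cannot be told apart, and the authors' scaling hides any shift in the RNA content of a cell.

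**Figure D5:**
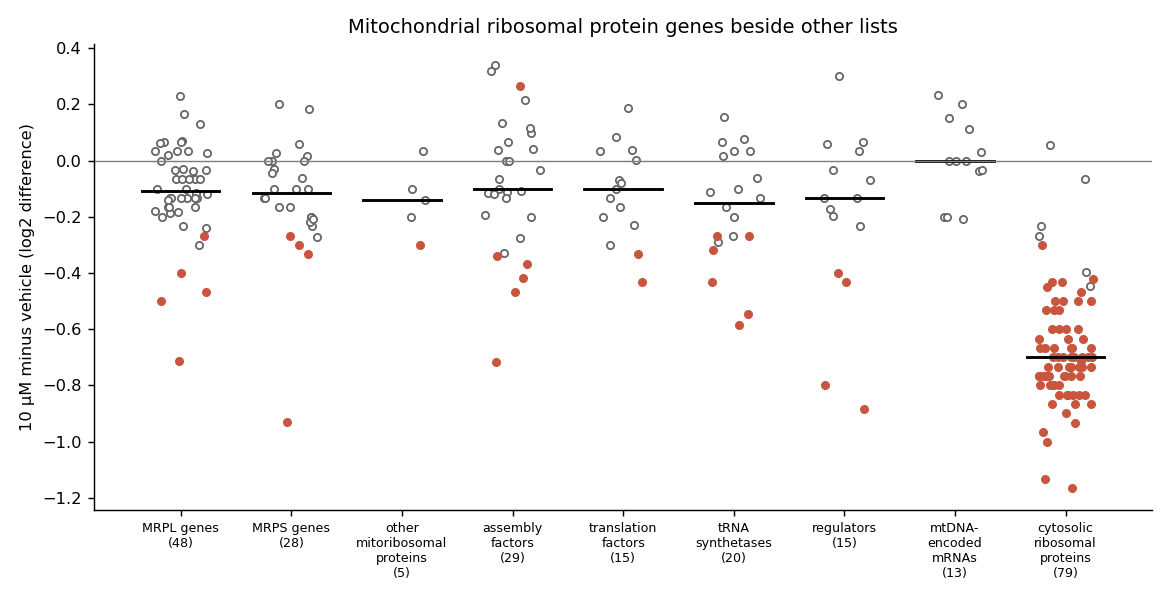
Difference between 10 µM and vehicle (y axis, log2 scale) for each gene of 9 lists (x axis, with the number of genes tested), called genes filled and list medians as black lines; points are spread sideways for legibility only. The MRPL and MRPS medians are near -0.11, and the cytosolic ribosomal protein median is -0.70.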

How the data were processed

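RNA was measured in 12 libraries, 3 per group. The authors deposited variance-stabilised values on a log2 scale, made with DESeq2 on build GRCh38 per the submitters' processing notes. Aligner, counting tool, strand setting and annotation release: not given in the sources used here. Of 21211 entries, 4 named no gene and were dropped. Symbols matched 21166 of 21207 genes, and 20439 had a GENCODE 29 position. Genes more than 1 above the floor of 4.86 in at least 3 libraries were fitted with limma 3.58.1 (R 4.3.3; trend of variance on mean) on all 12 libraries in 4 groups, with Benjamini-Hochberg adjustment over all 17767 genes. The script was tested on simulated data. Depth came from low values: 98.0% of 94873 values under 7 matched whole reads within 0.005 (33.6% with depths assigned to wrong libraries), and no count model was the main test.

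Label numbers were taken to pair the libraries. Deviations from group means correlated at 0.316 to 0.777 over all 18 same-number pairs, and 15 of 18 were highest with their own number. In the exceptions number 8 was closer to number 11, as from vehicle to 1 µM (0.506 with its own number, 0.569 with 11). Number 6 correlated negatively with both others throughout (-0.711 to -0.287), and 8 with 11 positively (0.199 to 0.569). Deviations within a group cancel out, so these values are not independent. They mainly set number 6 apart, and a separate pairing of 8 and of 11 is less clear. P-values rest on 1 spread per gene, pooled over the 12 libraries within the 4 dose groups and moderated by its trend over genes. Without the block, that spread includes the differences between label numbers. The separate culture of the 3 libraries of a group rests on the design text. Members, lists and comparisons were chosen with earlier results of these data known. Named genes were the members called at 5 or 10 µM, the 5 highest and 5 lowest members, the MRPS18 genes, the 5 largest calls that the block added, the 3 nearest to the median profile, up to 4 called genes of each other list and a fixed set of regulators. MRPL17, MRPL30, MRPL32, MRPL46, MRPL54, MRPS11, the mitochondrial ribosomal RNAs and neighbouring genes were added after their values were seen. Sequences are RefSeq's. Alternatives changed the block, filter, scaling, weights, samples and scale. Figures were drawn with matplotlib 3.10.9.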

Additional observations from a re-analysis of the deposited data

How the results depend on the processing

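Of 2728 recomputed gene results (114 results, 24 alternatives, where fitted), 2418 kept their direction and side of the threshold, 220 lost the call, 90 gained one and 0 changed direction among called genes. Counts of called members moved most with library weights and with label numbers left out; the cause was not tested. At 10 µM, array weights gave 21 lower and 3 higher (21.2% and 20.4% of all genes), the replicate block 18 and 3 (19.7% and 18.7%), and the block without number 6 (chosen after seeing the data) 16 and 2 (18.2% and 17.2%). Leaving out number 6, 8 or 11 in every group gave 15, 0 and 3 lower (17.2%, 1.42% and 2.78% of all genes), and 2 higher for number 6 (16.2%). The stricter filter gave 1 higher (13% of the genes it kept). Single libraries left out gave 6 to 12 lower (8.05% to 12.4% of all genes) and 0 to 1 higher (7.52% to 11.9%). At 5 µM, array weights gave 20 lower and 4 higher (21.5% and 21.6%), the replicate block 8 and 2 (15.3% each), the block without number 6 9 and 2 (14.8% and 14.9%), and a fit of only the 2 groups 1 and 0 (4.28% and 4.73%). Leaving out number 6, 8 or 11 gave 8, 0 and 0 lower (13.8%, 0.315% and 0.523%) and 2, 0 and 0 higher (14%, 0.456% and 0.63%). Single libraries left out gave 1 to 6 lower (4.28% to 8.80%) and 0 to 2 higher (4.65% to 8.51%). At 1 µM, array weights gave 12 lower and 7 higher (13.8% and 15.1%), the replicate block 1 and 1 (5.26% and 6.76%), the block without number 6 4 lower (6.5%), and leaving out number 6 3 lower (5.48%). From 1 to 5 µM array weights gave 4 lower (5.8%). With means in place of medians, the change in large minus small was 0.036 at 1 µM and 0.045 at 5 µM. The replicate block changed no other member's call than those named in the report and MRPL30 at 10 µM. Values rounded in steps of 0.1 limit differences of that size in abundant genes.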
